A study of Mus musculus with 4 samples.

Results

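The genes described are 9 of the 23996 genes in the authors' deposited table of follicular helper T (TFH) cells: the ATP-gated channels P2rx7 and P2rx4, the adenosine receptor Adora2a, the surface enzymes Nt5e and Entpd1, the adenosine-clearing enzymes Ada and Adk, the nucleoside transporter Slc29a1 and the release channel Panx1. They were chosen by name, as genes of extracellular ATP and adenosine, with earlier results of these data known. Each matched exactly 1 row of the table. TFH cells, which give B cells help inside germinal centres and are CD4 T cells, were obtained by sorting CD4+CD44+CXCR5+PD-1+ cells of mouse spleen on day 7 after immunization with ovalbumin (OVA) in alum. Wild-type mice (WT) were Etv5f/f, so their Etv5 allele was floxed but no Cre was present. Conditional knockout mice (Etv5 cKO, or cKO) were Etv5f/f;Cd4-Cre. Cre is made in them where the Cd4 promoter is active, and therefore in T cells other than TFH cells as well. The age of the mice is not in the labels. Each genotype had 2 libraries, which the labels do not assign to separate mice. Since WT mice carried no Cre, effects of Cre and of the loss of Etv5 cannot be told apart.

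ATP that leaves a cell acts as a signal until surface enzymes take it apart. It can exit through pannexin channels, is sensed by P2X channels and P2Y receptors, is trimmed to AMP by CD39 (Entpd1) and becomes adenosine through CD73 (Nt5e). Adenosine then acts through the receptor encoded by Adora2a, which raises cyclic AMP and dampens T cell activation, or is taken up by the equilibrative transporter ENT1 (Slc29a1) and removed by adenosine kinase (Adk) or adenosine deaminase (Ada). In mouse T cells CD73 is carried by many TFH and regulatory T cells, and P2X7 activity is known to limit TFH cell numbers in the gut.

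The authors' deposited table gives 1 FPKM value for each gene and genotype (fragments scaled to transcript length and library size) that covers both libraries; neither their spread nor their depth could be derived, and the only measure of error is the p-value of the authors' Cuffdiff test, which may reflect technical spread. The target Etv5, an ETS family transcription factor, fell to 40.4% of WT, 5.24 against 2.12 FPKM (Cuffdiff adjusted p = 0.0181, the authors' deposited table). The defining TFH markers were present in both genotypes, with Cd4 at 460 and 470 FPKM and Cxcr5 at 183 and 158 FPKM for WT and Etv5 cKO. The libraries also held transcripts of other cells. In the authors' deposited table the summed level of 15 granulocyte, erythroid and platelet markers was 72.1 FPKM for WT and 309 for cKO, and that of 19 myeloid and dendritic markers was 333 and 392 FPKM. Most of the first sum came from the haemoglobin genes Hba-a1 (26.8 and 162 FPKM, Cuffdiff p = 0.177 by the authors' test) and Hbb-bt (24.6 and 95.0 FPKM, called), and without them it was 20.7 and 52.6 FPKM. The largest part of the second sum came from Ctss, at 168 FPKM for WT and 173 for cKO. No marker of either list was at 0.

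The levels of the pathway genes kept nearly the same order in both genotypes. In WT cells the order from high to low was P2rx7, Nt5e, Slc29a1, Adk, Panx1, Adora2a, P2rx4, Entpd1 and Ada. In Etv5 cKO cells Slc29a1 stood above Nt5e and the order was otherwise identical. FPKM is a level per transcript length, so genes can be compared, and the highest level was 47.0 times the lowest in WT and 40.2 times in Etv5 cKO. Of the 9 genes, 6 were above 30 FPKM in both genotypes. Whether neighbours in this order differ beyond the spread of libraries could not be assessed.

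**Figure D1:**
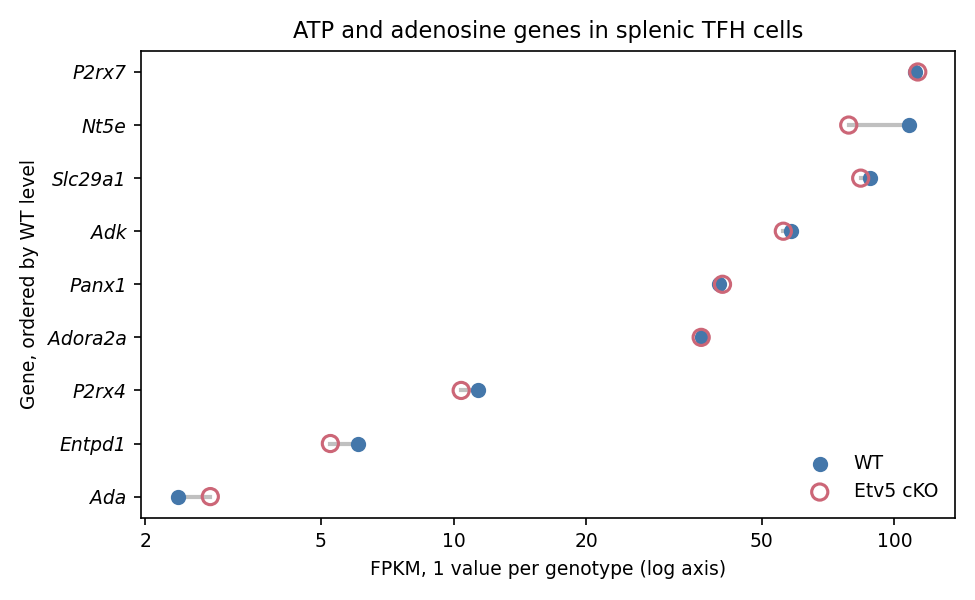
Level of each ATP and adenosine gene in FPKM on a log axis, with 1 filled point for WT and 1 open point for Etv5 cKO; no error bars can be drawn, since each point is the authors' single value for 2 libraries. Nt5e has the widest gap among the high genes, 108 against 78.8 FPKM, while the points of P2rx7, Adora2a and Panx1 lie on top of each other.

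No gene of the set was called at a Cuffdiff adjusted p below 0.05 over all tested genes: 0 of 9 were lower and 0 of 9 higher by that rule. In the authors' deposited table the rule was passed by 0.346% of the 11569 tested genes, 0.242% lower and 0.104% higher in Etv5 cKO. At an unadjusted p below 0.05, 1 of the 9 genes passed, Nt5e, against 2.4% of all tested genes, with 1.3% lower and 1.11% higher. Whether 1 of 9 differs from these shares was not tested. The genes were chosen with earlier results of these data known, so such a test could not treat them as picked blind. In direction 6 genes were lower and 3 higher in Etv5 cKO, or 5 and 4 with the fold changes centred on the median of tested genes, where Adora2a changed side. Their median log2 fold change (Etv5 cKO over WT) was -0.060, and over all tested genes it was -0.0033. The absolute log2 fold change was below 0.1 for 5 of the 9 genes and below 0.2 for 6, and 78.9% of all tested genes were below 0.2.

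**Figure D2:**
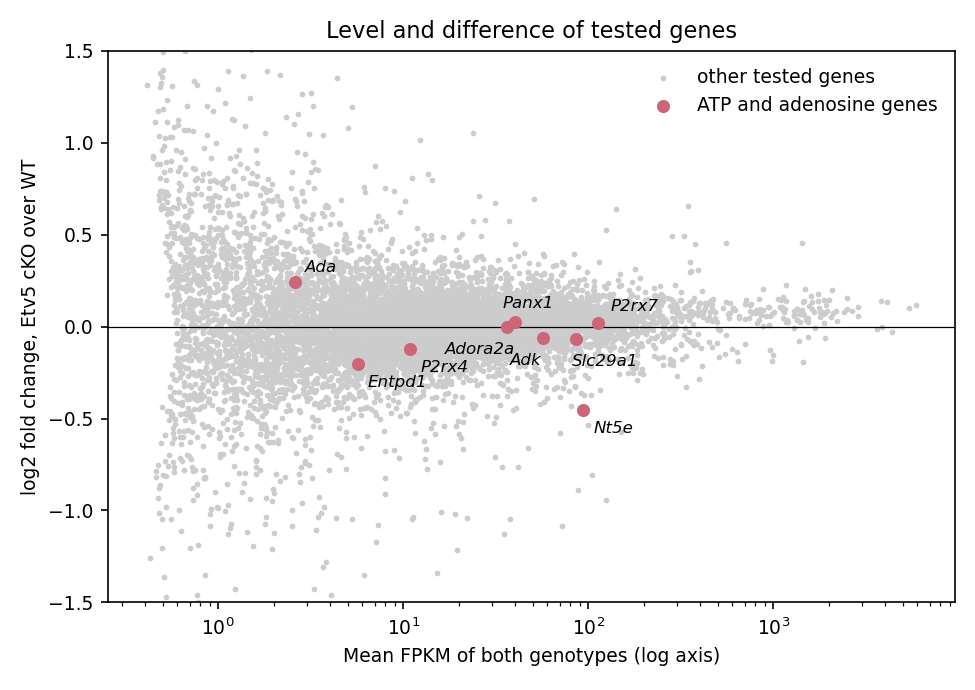
Mean FPKM of both genotypes on a log axis against the log2 fold change of Etv5 cKO over WT, with the ATP and adenosine genes as large labelled points over the other tested genes in grey; 49 tested genes lie outside the drawn range of 1.5 on the log2 scale in either direction. Nt5e, at a log2 fold change of -0.46, sits at the lower edge of the genes of its level, and the 8 other members lie between -0.21 and 0.24.

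Nt5e encodes CD73, the surface enzyme that turns AMP into adenosine, and showed the largest difference of the set. It lies on the plus strand of mm10 chromosome 9 from 88327609 to 88372089 and is protein coding. In the authors' deposited table its level was 108 FPKM for WT and 78.8 for cKO, 72.9% of WT. WT was thus the higher genotype, by a difference in FPKM larger than that of any other member. Its log2 fold change was -0.46, and the unadjusted p from the authors' Cuffdiff test, 0.0109, did not pass the correction (adjusted p = 0.911). By p-value Nt5e ranked 138 among the 11569 tested genes of the authors' deposited table. By size, 6.15% of tested genes had an absolute log2 fold change at least as large. Of the 850 tested genes whose mean FPKM was at least that of Nt5e, 16 (Nt5e included) had a fold change of at least that size in either direction.

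Entpd1 encodes CD39, the enzyme upstream of CD73, and was among the low genes of the set. Its locus on mm10 chromosome 19 runs from 40659794 to 40741602. The authors' deposited table puts it at 6.06 FPKM for WT and 5.26 for cKO (log2 fold change -0.21, Cuffdiff p = 0.350, adjusted p = 0.999). Both genotypes therefore had far more Nt5e than Entpd1 transcript. The ratio of the levels was 17.8 in WT and 15.0 in Etv5 cKO. Both enzymes had their higher value in WT, and neither difference passed the correction. GENCODE places 2 processed pseudogenes and a sense intronic transcript on the same strand inside the Entpd1 locus, whose reads could be counted with it.

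Markers of cells that can carry these enzymes were read beside them, because in a bulk sample fewer cells of a type and less RNA per cell cannot be told apart. Of 10 regulatory T cell markers 5 were lower and 5 higher in cKO by the authors' deposited table, with 0 called, 1 below an unadjusted p of 0.05 and a summed level of 697 FPKM for WT and 657 for cKO. Foxp3, which defines these cells, stood at 65.3 and 66.3 FPKM, and Il2ra at 21.8 and 23.1 FPKM. The sort as given has no step that removes such cells. The gene below an unadjusted p of 0.05 was Nrp1 (45.0 and 32.9 FPKM, adjusted p = 0.866 by the authors' test), named after its value was seen. Ikzf2, which encodes Helios and is in the same list, stood at 102 and 79.9 FPKM in the authors' deposited table (unadjusted Cuffdiff p = 0.0561). Of 11 TFH markers 8 were lower and 3 higher, with 0 called, 1 below an unadjusted p of 0.05 and a summed level of 1870 FPKM for WT and 1776 for cKO. That gene was Il21, the cytokine by which TFH cells help B cells, at 66.1 and 49.7 FPKM (log2 fold change -0.41, p = 0.0197, adjusted p = 0.999 by the authors' test), also named after its value was seen. B and plasma cell markers were low in both genotypes, with Cd79b at 4.13 and 4.80 FPKM. Their summed level over 11 genes was 20.1 FPKM for WT and 19.6 for cKO, most of it from Cd22. Of the 4 tested genes of this list 3 had higher values in cKO and 1, Cd22, a lower one (log2 fold change -0.28). After quantile normalization 2 were higher and 2 lower. Cuffdiff called 0 of them, and 0 were below an unadjusted p of 0.05. Of 9 tested CD8, NK and unconventional T cell markers 8 had higher values in cKO and 1, Nkg7, a lower one (55.6 and 45.0 FPKM). By the authors' test 0 of them were called and 2 were below an unadjusted p of 0.05. The summed level of this list was 83.8 FPKM for WT and 80.6 for cKO, most of it from Nkg7. The median log2 fold change of its tested genes was 0.42. Cd8a was not tested, at 0.0519 and 0.0800 FPKM. The tested Cd8b1 stood at 4.32 and 5.77 FPKM and Klrb1c at 10.2 and 10.4 FPKM for WT and cKO. No regulatory T, TFH, B or other lymphoid marker found was listed at 0. The part of these cells in the Nt5e and Entpd1 values was not tested.

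Since Etv5 binds DNA through an ETS domain, the stretches before the start sites were searched for the ETS core GGAA and for the longer word CGGAAG, which contains it, on both strands. RefSeq windows on GRCm38.p6 matched 8 of the 9 genes, the exception being Adora2a, and the 250 bases before the start nearest to that of the authors' deposited table were read. GGAA was present in 7 of the 8 windows, and in 93.4% of 32851 windows of all genes. CGGAAG was present in 3 of the 8 windows, those of Ada, Entpd1 and Panx1, and in 13.6% of all windows. Both shares over all windows count every window of a gene, while a single window was read for each gene of the set. The Nt5e window held GGAA at 3 places and no CGGAAG, and the P2rx4 window held neither. The stretches of 30 bases below are shown because Nt5e had the largest difference of the set and the other 3 genes hold the longer word. They are written 5′ to 3′ on the strand of the gene, with the matched word in capitals.
Nt5e (plus strand, chr9:88327359-88327388, word begins 250 bases before the start): GGAAcgctgcccctgcagttgtcaccgccg
Nt5e (plus strand, chr9:88327445-88327474, word begins 151 bases before the start): aacctcctctctgTTCCctgcgggctgcgt
Nt5e (plus strand, chr9:88327553-88327582, word begins 43 bases before the start): agggcctggggctGGAAgaggcgggtctgt
Entpd1 (plus strand, chr19:40659700-40659729, word begins 58 bases before the start): ggcttgaggttcCTTCCGaaaccgggctgg
Ada (minus strand, chr2:163750409-163750438, word begins 187 bases before the start): actgaaggggccCGGAAGgggcaggtgagg
Ada (minus strand, chr2:163750249-163750278, word begins 27 bases before the start): gggccgtggctcCGGAAGgcggggtctctc
Panx1 (minus strand, chr9:15045498-15045527, word begins 37 bases before the start): cgcgtcagcgcgCTTCCGgaaactgctcgc
A word match is a description of the sequence and not a binding site. The genes with the longer word include Ada, with a higher value in Etv5 cKO, Entpd1, with a lower one, and Panx1, at 40.1 and 40.7 FPKM. GENCODE M21 starts the coding transcript of Nt5e upstream of the RefSeq start, so that the Nt5e stretches are inside its first exon there.

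P2rx7 encodes P2X7, the channel that opens at high ATP and can kill T cells, and was the highest gene of the set in both genotypes. It lies on the plus strand of mm10 chromosome 5 from 122643911 to 122691432. Its level in the authors' deposited table was 112 FPKM for WT and 113 for cKO (log2 fold change 0.02, Cuffdiff p = 0.925, adjusted p = 0.999). P2rx7 and Nt5e were thus close in WT, with Nt5e at 0.968 of the P2rx7 level, and stood apart in Etv5 cKO, with Nt5e at 0.697 of it. That ratio takes in the Nt5e difference, which did not pass the correction, and its own change was not tested. P2rx4 encodes P2X4, a channel that opens at lower ATP, and follows P2rx7 on the same strand after a gap of 16124 bases, from 122707557 to 122729042. In the authors' deposited table it stood at 11.3 FPKM for WT and 10.4 for cKO (log2 fold change -0.12, Cuffdiff p = 0.572, adjusted p = 0.999). P2rx7 was 9.84 times as high as its neighbour in WT and 10.9 times in Etv5 cKO. P2X4 is also made by myeloid cells. Of their 16 tested markers 15 had higher values in Etv5 cKO and 1 a lower one. The authors' Cuffdiff test called 1 of them, Lyz2 (8.12 and 16.4 FPKM), and 7 were below an unadjusted p of 0.05, among them the lower one, Cybb (19.8 and 13.6 FPKM). The part of those cells in the P2rx4 value was not tested.

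The other nucleotide receptors were low in these cells. The P2X and P2Y list has 14 genes, of which 9 were too low to be tested, with 0.275 FPKM as their highest value in either genotype. Besides P2rx7 and P2rx4 the tested genes included P2ry1, a receptor for ADP, at 1.60 and 1.53 FPKM, and P2ry13, another ADP receptor, at 1.08 and 1.38 FPKM for WT and Etv5 cKO. Of the 5 tested genes 3 were higher and 2 lower, with 0 called by Cuffdiff and 0 below an unadjusted p of 0.05 in the authors' deposited table. P2ry13 had the largest difference of this list, a log2 fold change of 0.36 at a level near 1 FPKM (p = 0.655 by the authors' test). Its locus in the table is shared with P2ry12 and P2ry14, which gives 1 interval for all 3 genes.

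Adora2a, the adenosine receptor that raises cyclic AMP in T cells, had the smallest difference of the set. It lies on the plus strand of mm10 chromosome 10 from 75316877 to 75334792. By the authors' deposited table its level was 36.5 FPKM for WT and 36.4 for cKO (log2 fold change -0.0028, Cuffdiff p = 0.989, adjusted p = 0.999). Of the tested genes 98.2% had a larger or equal absolute log2 fold change. The other adenosine receptors, Adora1, Adora2b and Adora3, were not tested and did not exceed 0.164 FPKM in either genotype. Adora2a was therefore the adenosine receptor transcript measured above trace level, and Adora1 was listed at 0 in both genotypes.

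Genes of the cyclic AMP pathway, which this receptor feeds, held no called gene. Of 18 tested genes 5 were higher and 13 lower in cKO by the authors' deposited table (8 and 10 after quantile normalization), with 0 called by Cuffdiff and 0 below an unadjusted p of 0.05. The median log2 fold change was -0.017. Gnas, the stimulatory G protein subunit, stood at 326 and 305 FPKM for WT and Etv5 cKO, and Gnai2, an inhibitory subunit, at 346 and 357 FPKM. The adenylyl cyclase Adcy7 stood at 120 and 117 FPKM, and Prkar1a, a regulatory subunit of protein kinase A, at 273 and 271 FPKM. The largest difference among genes of at least 1 FPKM was that of Crem, a transcription factor that responds to cyclic AMP, at 10.2 and 8.36 FPKM (log2 fold change -0.29, p = 0.272 in the authors' deposited table).

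Of the enzymes that remove adenosine, the kinase was far above the deaminase. Adk, which returns adenosine to AMP inside the cell, lies on mm10 chromosome 14 from 21052574 to 21448569. It stood at 58.3 FPKM for WT and 56.0 for cKO by the authors' deposited table (log2 fold change -0.060, Cuffdiff p = 0.748, adjusted p = 0.999). Ada, which converts adenosine to inosine, lies on the minus strand of chromosome 2 from 163726571 to 163750239 and was the lowest gene of the set. It stood at 2.38 FPKM for WT and 2.81 for cKO by the authors' deposited table (log2 fold change 0.24, Cuffdiff p = 0.455, adjusted p = 0.999). Pseudocounts of 1 and 5 FPKM brought the Ada log2 fold change to 0.17 and 0.08, since its level is low. The Adk level was 24.6 times the Ada level in WT and 19.9 times in Etv5 cKO. All 20 proliferation markers had higher values in cKO by the authors' deposited table, with 0 called, 1 below an unadjusted p of 0.05 and a summed level of 826 FPKM for WT and 961 for cKO. Their part in the Ada value was not tested.

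The list of adenosine and purine salvage genes had mostly higher values in Etv5 cKO by small amounts. Of its 15 tested genes, Ada and Adk included, 12 were higher and 3 lower by the authors' deposited table, 0 of them below an unadjusted p of 0.05 and so 0 called. The median log2 fold change was 0.07. The proliferation markers, all 20 with higher values in cKO, had a median of 0.24, and their part in the values of this list was not tested. The salvage enzymes Hprt and Aprt, which rebuild nucleotides from purine bases, stood at 105 and 109 FPKM and at 84.0 and 88.2 FPKM for WT and Etv5 cKO. The cytosolic nucleotidase Nt5c stood at 84.2 and 88.7 FPKM. Pnp2, a purine nucleoside phosphorylase, had the largest difference of the pathway lists, 1.13 and 2.10 FPKM (log2 fold change 0.89, Cuffdiff p = 0.0751, adjusted p = 0.999 in the authors' deposited table). It is a close copy of its neighbour Pnp, at 22.7 and 23.9 FPKM, and reads can be split between the pair.

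Slc29a1, the transporter ENT1 that carries adenosine across the membrane in either direction, lies on the minus strand of mm10 chromosome 17 from 45585200 to 45599603. Its level in the authors' deposited table was 87.9 FPKM for WT and 83.8 for cKO (log2 fold change -0.07, Cuffdiff p = 0.700, adjusted p = 0.999). Red cells carry ENT1 as well. Of the 12 tested granulocyte, erythroid and platelet markers 10 had higher values in Etv5 cKO, 5 of them called, and the part of those cells in the Slc29a1 value was not tested. GENCODE lists the antisense gene Gm17080 over Slc29a1, and the strand setting of the authors' counting is not given in the sources used here.

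Panx1 encodes pannexin 1, a channel through which ATP leaves the cell, and lies on the minus strand of mm10 chromosome 9 from 15005785 to 15045478. It stood at 40.1 FPKM for WT and 40.7 for cKO by the authors' deposited table (log2 fold change 0.02, Cuffdiff p = 0.898, adjusted p = 0.999). Panx1 was the pannexin measured above trace level, since Panx2 and Panx3 did not exceed 0.0255 FPKM in either genotype. In the transport and release list 8 of 13 genes were tested, of which 4 were higher and 4 lower by the authors' deposited table, 0 of them below an unadjusted p of 0.05 and so 0 called. Slc28a2, a concentrative nucleoside transporter, stood at 59.0 and 54.0 FPKM for WT and Etv5 cKO. Slc17a9, the transporter that loads ATP into vesicles, stood at 14.2 and 15.9 FPKM, and Slc29a4 at 1.29 and 1.57 FPKM.

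The list of ecto-enzymes and their relatives and the effectors of P2X7 also held no called gene. Of 11 tested ecto-enzymes and relatives, Nt5e and Entpd1 included, 3 were higher and 8 lower in cKO by the authors' deposited table. Nt5e was the 1 gene below an unadjusted p of 0.05. Art2b, the surface transferase that in the mouse can open P2X7 by attaching ADP-ribose to it, stood at 129 and 121 FPKM, above P2rx7 itself. Dpp4, the surface peptidase CD26, stood at 39.5 and 43.2 FPKM, and Entpd5, a relative of CD39, at 21.1 and 23.1 FPKM. Acpp, an acid phosphatase that can also make adenosine from AMP, stood at 8.26 and 6.39 FPKM (log2 fold change -0.37, p = 0.0828, adjusted p = 0.999 by the authors' test) and was named after its value was seen. Entpd4 was listed at 0 in both genotypes. Of 7 tested P2X7 effectors 3 were higher and 4 lower by the authors' deposited table, 0 of them below an unadjusted p of 0.05 and so 0 called. The shedding protease Adam10 stood at 60.4 and 58.2 FPKM, the calcium sensor Stim1 at 45.0 and 43.6 FPKM, and the inflammasome protease Casp1 at 52.6 and 51.6 FPKM. Pycard, the inflammasome adaptor, had the largest difference of that list, 45.0 and 54.5 FPKM (log2 fold change 0.28, Cuffdiff p = 0.127 in the authors' deposited table). Nlrp3, also in that list, was too low to be tested, at 0.0999 FPKM for WT and 0.111 for cKO.

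Over all pathway lists, each gene taken once, 65 of 93 listed genes were tested, 30 higher and 35 lower in cKO by the authors' deposited table. Cuffdiff called 0 of them, and Nt5e was the 1 gene below an unadjusted p of 0.05. Without the 9 genes of the set, 56 tested genes remained, 27 higher and 29 lower (median log2 fold change -0.0027). In level and fold change together (distance on the log2 scale of mean FPKM and of fold change, over the 65 tested pathway genes and 2 values per gene), Nt5e stood farther from its nearest pathway gene than any other member did. That gene was Slc29a1 at a distance of 0.41, followed by Prkacb at 0.53. The distance takes in the Nt5e fold change given above, which did not pass the correction, and is no separate result. For the other 8 members the nearest gene lay within 0.14, as for Ada, whose nearest was the adenylyl cyclase Adcy6 at 0.017, and for Slc29a1, whose nearest was Aprt at 0.14. All these values come from the same 4 libraries.

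**Figure D3:**
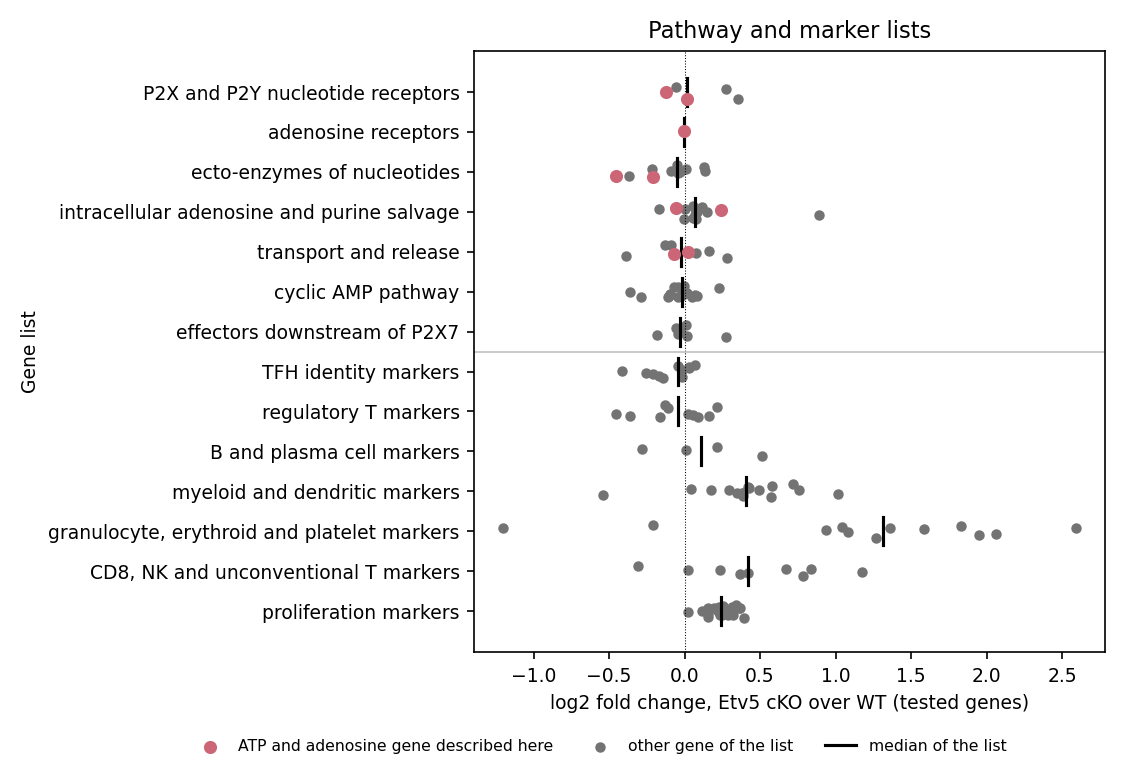
log2 fold change of Etv5 cKO over WT for each tested gene of the 7 pathway lists (above the grey line) and the 7 marker lists (below it), with the genes of the set in red and a black bar at the median of each list. The pathway medians lie between -0.053 and 0.07. Among the marker lists the median is 1.32 for granulocyte, erythroid and platelet, 0.42 for CD8, NK and unconventional T, and 0.41 for myeloid and dendritic markers. It is 0.24 for proliferation, 0.11 for B and plasma cell, -0.041 for TFH and -0.044 for regulatory T markers.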

How the data were processed

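TopHat2 2.0.13, Cuffdiff 2.2.0 and mm10 are the tools and build that the submitters' notes on processing list; which annotation and strand setting were used is not stated there. The labels' protocols describe stranded mRNA libraries, 4 in all. Per the file headers, the authors' deposited table holds 1 FPKM value per gene and genotype, the log2 fold change (Etv5 cKO over WT, no pseudocount), a fold ratio, a test score (not used here) and Cuffdiff's p-value, raw and adjusted. The deposited log2 fold change matched the log2 of the FPKM ratio to 4.1e-11, and the adjusted p-value matched a Benjamini-Hochberg adjustment over the 11569 tested genes to 8.4e-05. FPKM values carry no counts, so the depth is unknown, and with no values per library no test beyond the authors' own was possible. Starts were made 1-based by adding 1: 11283 of 22432 starts then matched RefSeq on GRCm38, against 676 without.

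The genes and lists were chosen with earlier results of these data known. The lists hold 193 symbols, of which 189 were found. Beside the members, the text names for each pathway list the genes with an unadjusted p below 0.05, the 4 of highest mean FPKM and that of largest fold change at 1 FPKM or more, and the first 3 of the marker lists it discusses; other names were chosen after their values were seen. Some genes that this rule names are not reported here. Python 3.11.15, pandas 2.3.3 and matplotlib 3.10.9 were used, and the adjustment was tested on simulated data. Protein sequences were not used here.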

Additional observations from a re-analysis of the deposited data

How the results depend on the processing

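The count of called genes was 0 of 9, and 0 of the tested pathway genes, with the authors' adjusted p at 0.05 or 0.10 and with the p-values adjusted again over genes of at least 1 or 5 FPKM or over every listed gene. Few genes of the whole were called in any setting: 40 of 11569 at 0.05 and 41 at 0.10. The adjustments over genes of at least 1 or 5 FPKM called 38 of 10863 and 21 of 8647. That over every listed gene called 32 of 23996, as many as stood at the smallest Cuffdiff p, 5e-05. This adjustment could only raise the adjusted p-values of tested genes. The lowest adjusted p of the set by the authors' test was 0.911, so the threshold of 0.10 could call none of them either. Ada had a mean below 5 FPKM and was not adjusted at that minimum. Over these alternatives the adjusted p of Nt5e ranged from 0.911 to 1. At an unadjusted p below 0.01, 0 genes of the set passed in place of 1, against 1.15% of all tested genes. With pseudocounts of 1 and 5 FPKM, median centring and quantile normalization, the log2 fold change of Nt5e was between -0.47 and -0.43, and the median of the set between -0.072 and -0.055. Adora2a changed sign with median centring, from -0.0028 to 5.3e-04. Ada moved by more than 0.05 with both pseudocounts and Entpd1 with 5 FPKM (-0.11). No paired analysis was possible because the deposited table holds 1 value per genotype, and leaving out a library was not run for the same reason.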
